A study of Gossypium hirsutum with 15 samples.

Results

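The probes described here were those that gave a clear signal in cotton fibers at 13 and 16 days post-anthesis (DPA) and almost none at 22 and 25 DPA. A cDNA probe entered the group where at least one dye reached 400 units on at least 5 of the 6 arrays at 13 and 16 DPA and both dyes were under 400 units on at least 5 of the 6 arrays at 22 and 25 DPA. The unit is the background-subtracted median brightness of a spot. Of 29184 cDNA probes, 15561 met the early condition and 997 met both. The 150 of these 997 with the highest early level, taken as the median over the 6 early arrays of the brighter dye, were the members. The members were chosen by these measured early and late levels, which are therefore given as a description, without a test.

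A cotton fiber is a single cell that grows out of the seed coat. It first lengthens by loosening and extending a thin primary wall, and then deposits a thick secondary cell wall (SCW) that is almost pure cellulose. Transcripts of the elongation programme are known to decline as the fiber passes through the transition to SCW deposition, and those of cellulose deposition to rise. The probes are clones from ovules and fibers of another Upland cotton cultivar. Neither the deposited files nor the reference table pair them with genes, so members are called by their clone names, at most 2 per direction are named for each comparison, and nothing is said of their functions.

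RNA came from *Gossypium hirsutum* L. acc. TM-1, the Upland cotton genetic standard line, and from the immature fiber (*im*) mutant, its near-isogenic line, which is known for fibers that stay immature and poorly thickened. Plants of both lines were field grown, and fibers of each were sampled every 3 days from 13 to 25 DPA. At each stage 3 dual-dye cDNA arrays were hybridised, each with TM-1 in one dye and the *im* mutant in the other, for 15 arrays in all. The samples are labelled as fibers, whereas the series record speaks of ovules bearing fibers. No probe could be matched to a marker of either tissue, so the label was not checked against the data. In such bulk samples fewer cells of a type and less RNA per cell cannot be told apart. The methods describe pools of 10 plants as biological replicates, but for the arrays 2 biological replicates plus a dye swap. A stage may thus hold only 2 biological samples per line, n = 3 counts arrays, and part of the spread between them, and with it the p-values, may be technical.

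Which line each dye held is not settled, and every direction between the lines depends on it. The dye labels place the *im* mutant in Cy5 on all 15 arrays. The log2 ratios of replicate 2, however, ran against those of replicates 1 and 3 at every stage, with correlations over the probes of -0.76 to -0.40, while replicates 1 and 3 correlated at 0.53 to 0.77. Over the members, replicate 2 correlated at -0.90 to -0.84 with the others at 13 DPA, at -0.90 at 16 DPA, and at -0.79 to -0.61 at 19 DPA. Replicate 2 was therefore read as the dye swap, in the order of the source names, with the *im* mutant in Cy5 on replicates 1 and 3 and TM-1 in Cy5 on replicate 2. This reading was chosen with earlier results of these data known. According to the methods TM-1 was in Cy5, and under that reading TM-1 and the *im* mutant change places in every comparison of the lines below. The material labels exchange the lines at 16 and 22 DPA only, which turns the sign at those stages. Levels of the brighter dye and the mean of both lines depend on none of these readings.

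Between 13761 and 19272 of the 29184 probes reached 400 units in one or both dyes per array, and no member was saturated on any array. Replicates 1 and 2 at 19 DPA stood apart. Their 48 control spots marked 50% DMSO had medians of 1196 and 1895 units in Cy5 and of 1670 and 1855 units in Cy3, against 11.0 to 28.5 and 129.5 to 527.5 units on the other 13 arrays. Their Cy3 background was 972 and 797 units, whereas it was 284.5 units on replicate 3. The 96 blank spots did not share the rise, with medians of 21.5 and 15.5 units. Raw counts at 19 DPA are therefore also given for replicate 3 alone.

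Most of the difference between early and late levels lay between 16 and 22 DPA. The median over members of the brighter dye was 3703 units at 13 DPA, 2333 units at 16 DPA, 661 units at 19 DPA, 224 units at 22 DPA and 208 units at 25 DPA. Over the 15561 probes with an early signal, the same medians were 2075, 1667, 1022, 1229 and 1107 units. The members were thus brighter than those probes at both early stages and dimmer from 19 DPA on. The number of members at 400 units or more was 149, 150 and 149 on the 3 arrays at 13 DPA and 145, 150 and 149 at 16 DPA. At 19 DPA it was 94, 118 and 113. It was 3, 6 and 20 at 22 DPA and 2, 2 and 27 at 25 DPA, where the third replicate was the highest at both stages.

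**Figure D1:**
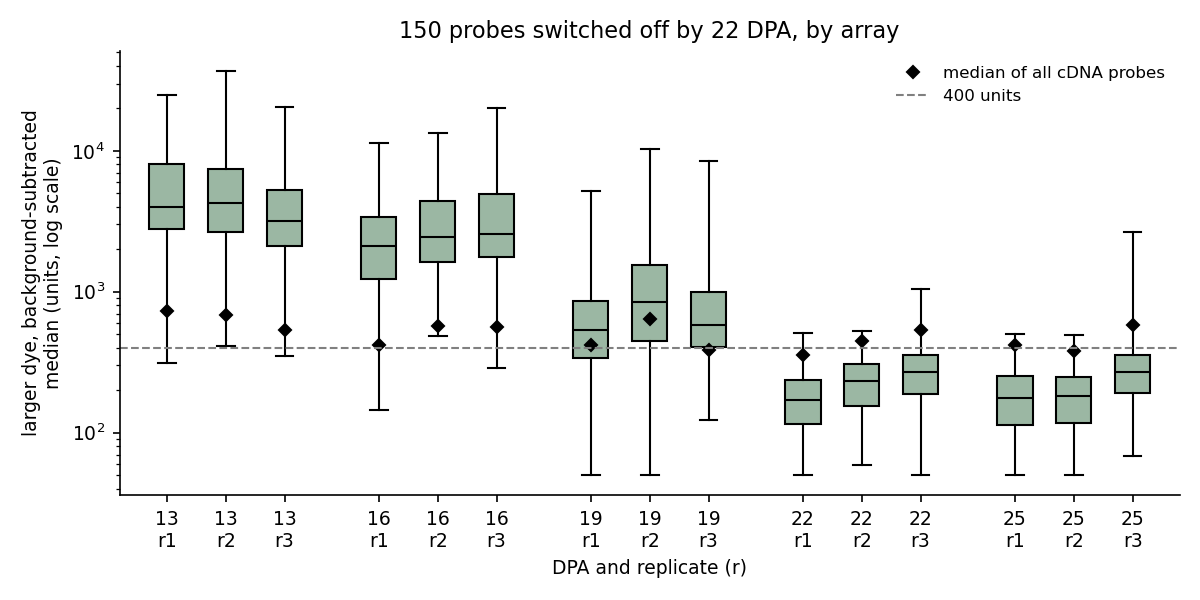
Background-subtracted median of the brighter dye (units, log scale) of the 150 members on each of the 15 arrays. Boxes give the quartiles, lines inside them the medians, whiskers the lowest and highest member, diamonds the median of all 29184 probes, and values under 50 units are drawn at 50. The box medians lie between 2095 and 4260 units on the 6 arrays at 13 and 16 DPA, at 534.5, 851 and 585 units at 19 DPA, and between 171.5 and 271 units at 22 and 25 DPA.

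A level under 400 units is a low level and not an absence of signal. On the 6 late arrays, 75 to 149 of the 150 members were still brighter than the 95th percentile of the blank spots of the same array. The difference was spread over more than one interval. From 16 to 19 DPA the stage median of a member changed by -1.90 on the log2 scale at the middle of the group, with 147 of 150 members lower, and from 19 to 22 DPA by -1.45, with 140 lower. These are raw levels, and the probes with an early signal moved too. Their middle change was -0.70 from 16 to 19 DPA, with 12913 of 15561 lower, and 0.21 from 19 to 22 DPA, with 5993 lower. From 13 to 16 DPA the middle change was -0.76, and from 22 to 25 DPA it was -0.13.

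The brightest member was 384P53_I_07, with an early level of 20397 units. In TM-1 it read 23358, 36833 and 16323 units on the 3 arrays at 13 DPA, 7803, 9159 and 16853 units at 16 DPA, 1130, 1891 and 2076 units at 19 DPA, 140.5, 152 and 432 units at 22 DPA, and 40.0, 74.5 and 124 units at 25 DPA. In the *im* mutant it read 24683, 29317 and 20535 units at 13 DPA, 11447, 9821 and 20258 units at 16 DPA, 5213, 7432 and 8466 units at 19 DPA, 314, 390 and 1044 units at 22 DPA, and 163, 93.0 and 214 units at 25 DPA. Across arrays the lines overlapped at 13 and 16 DPA, although within each array at 16 DPA the *im* value was the higher. They were apart at 19 DPA, where each *im* value was above each TM-1 value.

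The second member, 384P49_O_18, had an early level of 12946 units. In TM-1 it went from 13713, 20682 and 8654 units at 13 DPA through 2969, 8717 and 9645 units at 16 DPA to 194, 519 and 424 units at 19 DPA. In the *im* mutant the values were 13598, 15011 and 11208 units at 13 DPA, 5913, 12180 and 18462 units at 16 DPA and 3903, 5332 and 2443 units at 19 DPA. No array at 22 or 25 DPA exceeded 263 units in either line. Across arrays the lines overlapped until 16 DPA, although within each array at 16 DPA the *im* value was the higher. At 19 DPA TM-1 was near the limit of 400 units while the *im* mutant was far above it.

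At the other edge of the group, 384P25_D_01 held rank 150 with an early level of 1693 units, and 384P07_A_04 fell just outside at 1683 units. The brighter dye of 384P25_D_01 read 198.5, 238.5 and 245 units at 19 DPA, whereas that of 384P07_A_04 read 969.5, 1771 and 1268 units. Neighbours in rank could thus differ widely at 19 DPA, a stage that the rule did not use.

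At 19 DPA the members fell into those already dim and those still bright. Both dyes were under 400 units on at least 2 of the 3 arrays for 33 of 150 members, or 22.0%, against a background of 14.2% of the 15561 probes with an early signal. Of the 997 probes that met both conditions, whatever their early level, 587 (58.9%) were dim in this way. All 3 arrays were under the limit for 21 members, 2 arrays for 12 and 1 array for 38, and 79 members were above it on every array. Grouped by early level, of the 50 brightest members 4 were dim at 19 DPA and 38 were above the limit on all arrays, of the middle 50 the numbers were 13 and 25, and of the lowest 50 they were 16 and 16. The early level belongs to the rule, so these counts only describe the group. The number of dim members was 21 when replicate 1 was left out, where both remaining arrays had to be dim, a stricter condition that can only lower the count.

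The lowest members at 19 DPA were 384P36_E_24 and 384P29_I_16. The brighter dye of 384P36_E_24 read 8141, 7571 and 3921 units at 13 DPA, 224, 794 and 808 units at 16 DPA and 49.0, 32.0 and 142 units at 19 DPA. That of 384P29_I_16 read 3693, 2531 and 1355 units at 13 DPA, 1974, 1655 and 1851 units at 16 DPA and -16.0, 99.5 and 146 units at 19 DPA. These members differed in timing, as the first was already low at 16 DPA and the second was not.

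The highest members at 19 DPA were 384P53_I_07, given above, and 384P43_D_05. In TM-1 384P43_D_05 read 6735, 5201 and 6604 units at 13 DPA, 4911, 10891 and 4167 units at 16 DPA and 1219, 1584 and 1015 units at 19 DPA. In the *im* mutant the values were 8014, 4800 and 7215 units, then 7556, 13284 and 5954 units, and at 19 DPA 4698, 10282 and 3573 units. At 19 DPA the *im* mutant had kept values that overlap its own at 16 DPA, whereas those of TM-1 were below all of its earlier ones.

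The change from 13 to 16 DPA was tested, because the rule treated both stages alike. The members were, however, chosen on these same arrays and for low levels later. A decline by 16 DPA may therefore partly follow from the rule. Each test was made with limma over all probes measured, with Benjamini-Hochberg adjustment, and a probe was called where the adjusted p was under 0.05 and the change at least 2-fold. For the mean of both lines, 1 member rose and 3 fell of 150, against a background of 0.327% of probes called. The change was negative for 131 of 150 members and for 11104 of all 16216 probes tested. Its median was -0.65 on the log2 scale over members, against -0.18 over all these probes. Within TM-1, 1 member rose and 12 fell (background 1.21%), the fall being called for 0.604% of all probes, with a median change of -0.95 against -0.19. Within the *im* mutant no member was called (background 0.0802%), while 21 of 150 had an unadjusted p under 0.05, and the median change was -0.34 against -0.16. The counts within TM-1 and for the mean depended on single replicates, as TM-1 gave 1, 0 and 4 calls and the mean 0, 0 and 3 calls without replicates 1, 2 and 3 in turn.

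The members with the steepest decline of the mean were 384P36_E_24 and 384P19_D_17. For 384P36_E_24 the mean of both lines changed by -3.02 ± 0.37 (log2, SE, adjusted p = 0.00875). In TM-1 it was at least about 7.39-fold lower at 16 DPA (adjusted p = 0.00197), since both measured TM-1 spots, of 225 and 322 units, were under the limit. Such a bound sets the dim side to the normalized value typical of spots within 10 units of 400, so it is approximate. With the lowest normalized value of any spot at 400 units or more it was 8.12-fold, which is not a lower bound. Its spot on replicate 1 at 16 DPA was too dim in both dyes to enter. For 384P19_D_17, TM-1 read 3134, 2738 and 3338 units at 13 DPA and 308.5, 579 and 752.5 units at 16 DPA, and the *im* mutant read 5740, 4365 and 4967 units and then 634, 1114 and 1522 units. Neither line overlapped between the stages, and the mean changed by -2.12 ± 0.32 (adjusted p = 0.0224). In TM-1, 384P45_G_03 changed by -2.64 ± 0.44 (adjusted p = 0.00664), from 3053, 3207 and 2409 units to 242, 232 and 894.5 units.

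The member that rose was 384P18_I_03. In TM-1 it read 583, 413.5 and 350 units at 13 DPA and 4650, 5853 and 4309 units at 16 DPA, a change of 3.18 ± 0.35 (adjusted p = 6.66e-05). In the *im* mutant it read 345, 368 and 183 units and then 408, 578.5 and 486.5 units. TM-1 held most of the early signal of this member, and the *im* values at 16 DPA were just above the limit. The mean of both lines changed by 1.79 ± 0.32 (adjusted p = 0.0430).

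The lines were compared at each stage as log2(TM-1/*im*), a measure that the rule did not use. At 13 DPA few members passed the limits for a call, although 64 of 150 had an unadjusted p under 0.05 from limma. Of 150 members 6 were called, 3 higher in each line, against a background of 2.08%, and 3 were called when replicate 2 was left out. The median ratio over members was 0.10, against 0.01 over all 18363 probes tested. The brighter dye was the *im* dye for 88, 50 and 100 members on the 3 arrays, and for 48 members on all 3, while the same held for 30.4% of probes with an early signal. It was the TM-1 dye on all 3 arrays for 41 members, against 19.2% of those probes.

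Among the members called at 13 DPA, 384P53_H_01 exceeded the *im* mutant 7.02-fold in TM-1 (ratio of 2.81 ± 0.16 on the log2 scale, SD, n = 3, adjusted p = 2.51e-05 from limma). It read 3054, 4429 and 1931 units in TM-1 and 426.5, 681 and 291 units in the *im* mutant. 384P39_A_22 was 2.07-fold higher in TM-1 (adjusted p = 0.0121), with 13557, 13018 and 6229 units against 5866, 4671 and 5304 units. Neither of these members overlapped between the lines.

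In the other direction, 384P72_B_13 was 3.15-fold higher in the *im* mutant (log2 ratio -1.65 ± 0.32, adjusted p = 8.56e-04), with 617.5, 1463 and 901.5 units in TM-1 and 2743, 3639 and 2869 units in the *im* mutant. For 384P56_A_18 the difference was 2.35-fold (log2 ratio -1.24 ± 0.13, adjusted p = 0.00127), from 2010, 2204 and 1357 units in TM-1 to 5500, 5209 and 3190 units. Every *im* value was above every TM-1 value for both members.

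At 16 DPA the members were mostly higher in the *im* mutant. Of 150 members 45 were called, of which 43 were higher in the *im* mutant and 2 in TM-1, against a background of 9.11% in either direction and 5.01% higher in the *im* mutant. The ratio was negative for 119 members and for 8189 of all 16647 probes, with medians of -0.50 and 0.01. The *im* dye was the brighter for 122, 115 and 132 members, and on all 3 arrays for 109 (background 35.4%). Replicate 2 gave the same order, but it was read as the dye swap because its ratios ran against the others. Its order is thus no separate support. The fitted folds of the 43 members had a median of 2.74, but for 3 of them TM-1 was under 400 units on every array measured. For these only an approximate bound holds, of at least about 1.87-fold to 8.86-fold. With the material labels the same 45 calls divide into 43 higher in TM-1 and 2 higher in the *im* mutant.

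The largest difference on the *im* side was that of 384P23_B_18. It read 91.0, 310.5 and 105 units in TM-1 and 3512, 5064 and 2707 units in the *im* mutant at 16 DPA. With TM-1 under the limit on every array, it was at least about 8.86-fold higher in the *im* mutant (adjusted p = 4.05e-04). The same member read 774, 861 and 447 units in the *im* mutant and -66.5, 76.5 and 16.0 units in TM-1 at 19 DPA. On the normalized scale this was a difference of at least about 2.43-fold (adjusted p = 0.00142). At 13 DPA its *im* values were 313.5, 734.5 and 436 units. In TM-1 it stayed under 400 units on all 15 arrays, and in the *im* mutant it was brightest at 16 DPA. It thus entered the group through the *im* mutant alone. For 384P56_A_03, TM-1 read 78.0, 462 and 451.5 units and the *im* mutant 823, 1699 and 1238 units at 16 DPA. Its 6.30-fold difference (adjusted p = 0.00448) varied with an SD of 1.79 on the log2 scale, and replicate 1, with its TM-1 spot of 78.0 units, was the most distant with a ratio of -4.71. Without replicate 1 the log2 ratio was -1.63.

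On the TM-1 side at 16 DPA stood 384P18_I_03, 10.4-fold higher in TM-1 (log2 ratio 3.38 ± 0.24, adjusted p = 1.50e-07) from the values given above, and 384P53_H_01. The latter read 1690, 3427 and 2562 units in TM-1 and 290, 341.5 and 280 units in the *im* mutant, a difference of at least about 5.98-fold (adjusted p = 2.09e-06). Neither overlapped between the lines. At 16 DPA 384P53_H_01 met the rule through TM-1 only.

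At 19 DPA nearly the whole group was higher in the *im* mutant. Without any filter on dim spots, so that all 150 members enter, the ratio was negative for 147, with a median of -1.18 (2.26-fold). Over all 29184 probes it was negative for 14446, with a median of 0.00. TM-1 was under 400 units on at least 2 of 3 arrays for 104 of the 150, so the size of the median over members rests largely on dim values. Of the 150 members, 79 were called higher in the *im* mutant and 1 in TM-1, against a background of 3.33% in either direction and 2.1% higher in the *im* mutant. With spots dim in both dyes left out, 117 members could be tested, and 76 were higher in the *im* mutant and 1 in TM-1 (background 4.94%). A member that passed this filter had to be bright in one line, so the count over all 150 leads here. Of the 76, TM-1 was under 400 units on every array measured for 37, and their differences are approximate lower bounds, between 1.24-fold and 4.18-fold.

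**Figure D2:**
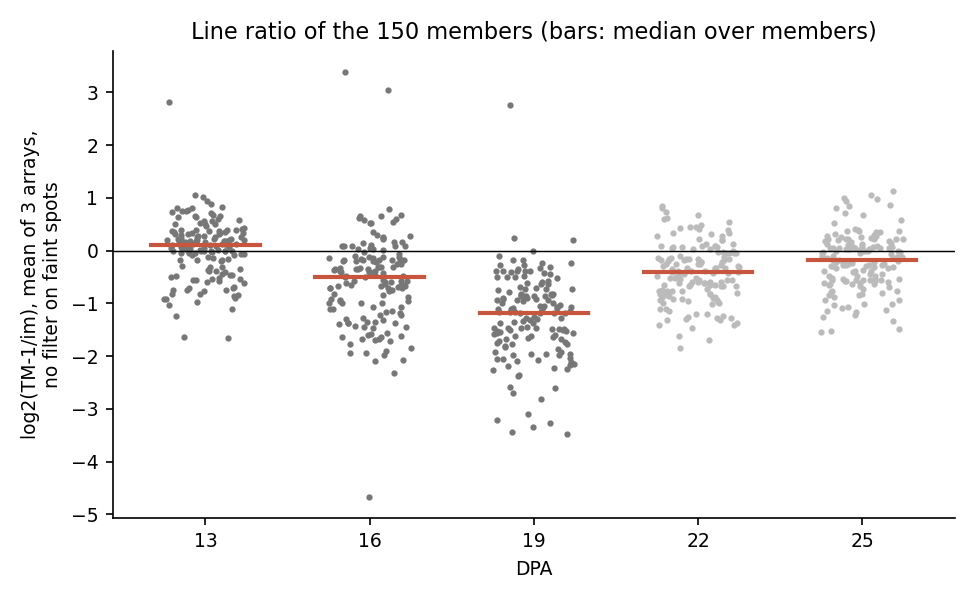
Mean log2(TM-1/*im*) of each of the 150 members over the 3 arrays of a stage, without a filter on dim spots, against DPA. Each point is a member, the bar is the median over members (0.10, -0.50, -1.18, -0.40 and -0.19), and the paler points mark 22 and 25 DPA, where the members are dim in both lines by the rule.

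The raw brightness gave the same order as the ratios. At 19 DPA the TM-1 dye reached 400 units for 24, 73 and 42 members on the 3 arrays, and the *im* dye for 93, 114 and 108. Of the 15561 probes with an early signal, the TM-1 dye reached it for 8798, 13560 and 12690 and the *im* dye for 11319, 12433 and 12402, so on replicate 1 the *im* dye was brighter over the array as a whole and on replicate 2 the TM-1 dye was. At 16 DPA the counts had been 131, 143 and 145 in TM-1 and 142, 149 and 148 in the *im* mutant. By this measure 104 members were under the limit in TM-1 on at least 2 of 3 arrays at 19 DPA, and 38 in the *im* mutant. For 69 members this held in TM-1 only, for 3 in the *im* mutant only, for 35 in both lines and for 43 in neither. The *im* dye was the brighter for 147, 129 and 138 members, and on all 3 arrays for 123, whereas this was so for 21.2% of the probes with an early signal.

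**Figure D3:**
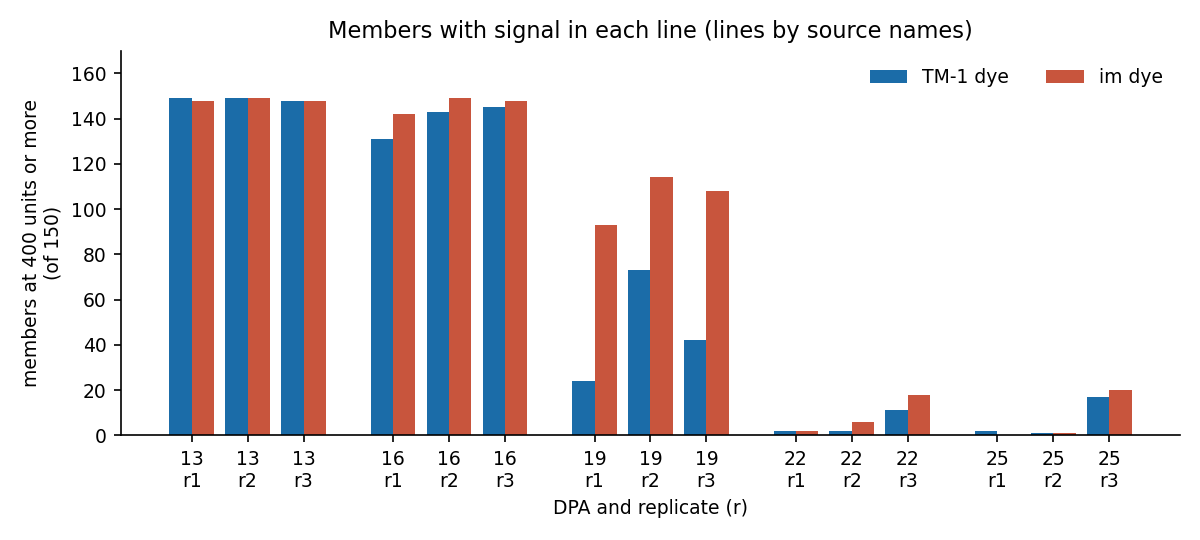
Number of the 150 members at 400 units or more in the TM-1 dye and in the *im* dye on each of the 15 arrays, with lines assigned by the source names. Bars are nearly level at 13 DPA (148 or 149 in each line), apart at 19 DPA (24, 73 and 42 against 93, 114 and 108) and at most 20 at 22 and 25 DPA.

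The difference at 19 DPA was not limited to the arrays with bright DMSO spots. On replicate 3 the *im* dye was the brighter for 138 of all 150 members, against 46.9% of the probes with an early signal, and 42 members reached 400 units in the TM-1 dye against 108 in the *im* dye. On that array 74 of the 150 members carried a negative flag in the deposited file, and flagged spots were kept. The files of replicates 1 and 2 hold no negative flags. The number of calls moved with the replicates, to 45 without replicate 2 and 46 without replicate 3, as fewer members were measured on at least 2 arrays (81 and 92). When spots were left out where either dye was dim, 43 members remained and 21 were called, all higher in the *im* mutant.

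The members with the largest difference at 19 DPA included 384P49_O_18, 10.8-fold higher in the *im* mutant (log2 ratio -3.43 ± 0.82, SD, n = 3, adjusted p = 4.44e-06), for which the values per array were given above, and 384P23_B_18. The brightest member, 384P53_I_07, was 4.21-fold higher in the *im* mutant with a spread of only 0.05 on the log2 scale (adjusted p = 1.31e-06). One member ran the other way. 384P53_H_01 read 1090, 3249 and 1817 units in TM-1 and 191, 299.5 and 375 units in the *im* mutant, which put TM-1 higher by at least about 5.02-fold (adjusted p = 5.16e-06). In TM-1 it had read 1690, 3427 and 2562 units at 16 DPA, so that its values of both stages overlapped, and at 22 DPA it read 401, 324.5 and -629 units.

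The shift of the ratio between stages tests whether the lines changed unequally. From 13 to 16 DPA the ratio moved towards the *im* mutant for 137 of 150 members and for 8640 of all 16216 probes, with median shifts of -0.56 and -0.03. Of the 150, 19 were called, 18 towards the *im* mutant and 1 towards TM-1, against a background of 4.8% in either direction and 1.85% towards the *im* mutant. Without the filter on dim spots 138 of 150 members moved towards the *im* mutant but only 8 were called, all in that direction (background 2.55% in either direction and 0.829% in this one), and with the filter 11 and 6 were called without replicates 1 and 2. The direction was thus common to the group, whereas the number of calls was not stable. The ratios of 13 and 16 DPA, read from separate arrays, correlated at 0.81 over the 150 members, a description over clones that share the same arrays.

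The largest shifts towards the *im* mutant from 13 to 16 DPA were those of 384P29_D_06 and 384P56_P_21. For 384P29_D_06, TM-1 read 7093, 7965 and 5175 units at 13 DPA and 677, 1740 and 1587 units at 16 DPA, while the *im* mutant read 8881, 5646 and 6575 units and then 3168, 5943 and 6487 units. The ratio moved by -1.96 ± 0.21 (SE, adjusted p = 5.86e-04), from lines that overlapped to lines that did not. The ratio of 384P56_P_21 moved by -1.68 ± 0.22 (adjusted p = 0.00148), with *im* values of 1867, 3851 and 1323 units at 13 DPA and 1999, 1266 and 2280 units at 16 DPA beside TM-1 values of 1409, 2802 and 942 units and then 422, 235 and 682 units. In both members the TM-1 values of 16 DPA lay below those of 13 DPA, while the *im* values of both stages overlapped. The call towards TM-1 was 384P18_I_03, with a shift of 2.79 ± 0.21 (adjusted p = 3.44e-05), where the *im* mutant was under the limit on every array measured at 13 DPA.

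From 16 to 19 DPA the ratio moved further towards the *im* mutant for 113 of all 150 members without the filter, with a median shift of -0.78. Over all 29184 probes it moved that way for 14403, with a median shift of 0.01. Among the members 36 were called in that direction and 4 towards TM-1 (background 5.8% in either direction and 3.34% towards the *im* mutant). With the filter, 55 of 117 members were called, 50 towards the *im* mutant and 5 towards TM-1, against a background of 11.1% in either direction and 6.93% towards the *im* mutant. The calls numbered 26 without replicate 2 and 36 without replicate 3. The members were not all the same ones at both stages. Of the 150, 118 were higher in the *im* mutant at 16 and at 19 DPA, 29 were higher in TM-1 at 16 DPA and in the *im* mutant at 19 DPA, 2 were higher in TM-1 at both and 1 changed from the *im* mutant to TM-1. Calls in the *im* direction at both stages numbered 19 without the filter. The ratios of 16 and 19 DPA correlated at 0.29 over members (Spearman 0.09), and at 0.38 (Spearman 0.18) over the 117 measured with the filter. Dim TM-1 values limit the ratios at 19 DPA, so these correlations cannot tell how far the sizes at both stages were related.

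**Figure D4:**
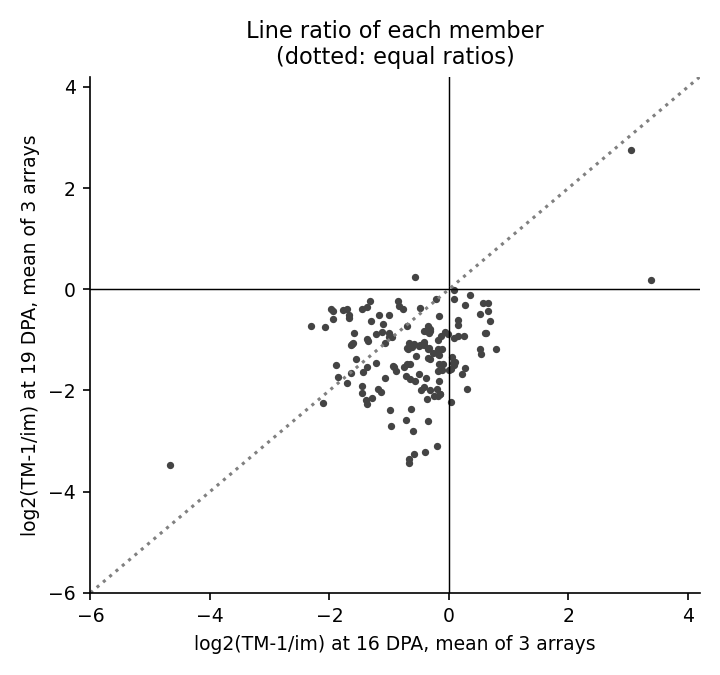
Mean log2(TM-1/*im*) of each member over 3 arrays at 16 DPA (horizontal axis) and at 19 DPA (vertical axis), without a filter on dim spots. Each point is 1 of 150 members and the dotted line marks equal ratios. Most points, 118, lie left of 0 and below 0, and 29 lie right of 0 and below it.

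The largest shifts from 16 to 19 DPA towards the *im* mutant were those of 384P18_I_03 and 384P47_C_22. The ratio of 384P18_I_03 moved by -3.19 ± 0.18 (adjusted p = 5.43e-06), back from 3.38 to 0.19. At 19 DPA it read 796.5, 1769 and 1845 units in TM-1 and 768.5, 1388 and 1573 units in the *im* mutant. The lines overlapped across arrays, with TM-1 the higher within each array. In the *im* mutant all of these values were above those of 16 DPA, so the member reached its highest level at 16 DPA in TM-1 and at 19 DPA in the *im* mutant.

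For 384P47_C_22, TM-1 read 2360, 4277 and 5367 units at 16 DPA and 258.5, 656 and 306.5 units at 19 DPA, while the *im* mutant read 3275, 5789 and 8072 units and then 3647, 5611 and 1887 units. The ratio moved by -2.83 ± 0.24 (adjusted p = 2.34e-05). The *im* values of both stages overlapped and those of TM-1 did not. By 22 DPA no value of either line was above 154.5 units.

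Towards TM-1 the largest shifts among the members called with the filter were those of 384P70_B_01, by 1.68 ± 0.34 (adjusted p = 0.00601), and 384P72_B_13, by 1.24 ± 0.30 (adjusted p = 0.0153). The former read 341, 454.5 and 1504 units in TM-1 and 1705, 1757 and 3473 units in the *im* mutant at 16 DPA, and 209, 974.5 and 182.5 units against 432, 1067 and 214 units at 19 DPA. Both members were near the limit at 19 DPA, and their spots on replicate 3 were dim in both dyes and left out. With those spots kept in, the shift was 1.37 for 384P70_B_01 and 0.72 for 384P72_B_13, and the latter was not called (adjusted p = 0.265).

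**Figure D5:**
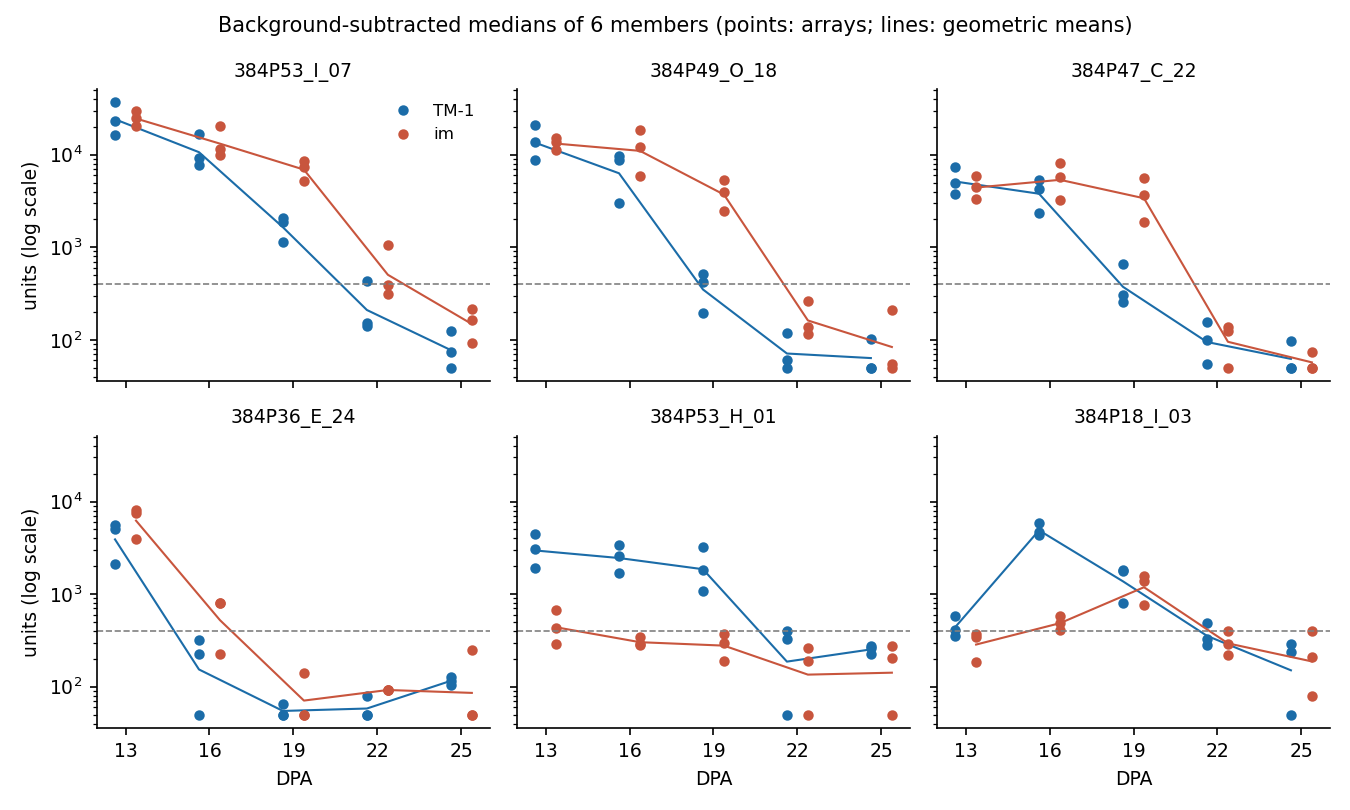
Background-subtracted medians (units, log scale) of 6 members in TM-1 and in the *im* mutant at 13 to 25 DPA. Points are arrays, 3 per line and stage, lines join the geometric means, values under 50 units are drawn at 50, and the dashed line marks 400 units. In the 3 upper panels the points of the lines do not overlap at 19 DPA, with the *im* mutant higher. 384P36_E_24 is dim in both lines by 19 DPA, 384P53_H_01 is above 400 units in TM-1 up to 19 DPA, and 384P18_I_03 peaks at 16 DPA in TM-1.

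At 22 and 25 DPA no member entered a comparison of the lines with the filter, because both dyes were dim by the rule (background 3.69% and 4.42%). Without the filter, 14 members were called higher in the *im* mutant and none in TM-1 at 22 DPA (background 2.32%), and 62 of 150 had an unadjusted p under 0.05. At 25 DPA 9 were called higher in the *im* mutant and 2 in TM-1 (background 2.97%). All of these rest on spots near or under the limit, and no fold is given for them. The *im* dye was the brighter on all 3 arrays for 62 members at 22 DPA, against 25.7% of probes with an early signal, and for 25 members at 25 DPA, against 21.9%.

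The members were spread over the array and over the clone collection. They lay in 46 of 48 printed blocks, with at most 7 in one block, and came from 62 of 76 clone plates, with at most 7 from one plate. Only 4 members had another member as a direct neighbour. Clones of the same gene could not be recognised, so that members may share a target and are not independent of each other.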

How the data were processed

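The authors scanned 15 dual-dye cDNA arrays, and the deposited file of each holds the intensity of spot and background in each dye. Of 30000 spots, 816 controls were left out. The deposited value table gives a log2 ratio, Cy5 to Cy3. Its columns had medians of -0.014 to 0.018 and correlated at 0.959 to 0.996 with the intensities. Which of the normalization steps it includes, and its direction between lines, are not given in the sources used here, and it served as an alternative. Versions limma 3.4.5 and R 2.12.2 stand in the submitters' processing notes. The members, the lists and the tests were chosen with earlier results of these data known.

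Medians after background subtraction were floored at 50 units, and spots with both dyes under 400 units were left out, after the faint-spot filter of the methods. Spots with a negative flag were kept. Loess within and Aquantile between arrays, then lmFit and eBayes, were run in limma 3.58.1 with R 4.3.3. The lines were compared on log2(TM-1/*im*) in one fit of all 15 arrays with a coefficient for each stage, and 13 with 16 DPA on the mean of both channels and on the 30 single channels with the array as a block. Tests required at least 2 measured arrays per stage. All p-values were adjusted over all probes tested, and all adjusted p are from limma. A fold is written as at least about N-fold where one side was under 400 units on every array measured. The dim side was then set per array to the higher of its own normalized value and the median normalized value of spots within 10 units of 400. The fits were tested on simulated normalized values, scored for the lines at 16 DPA, both shifts, the mean and the single channels. The member rule, the filter, the normalization and the fold bounds were not simulated. Named are, per comparison and direction, the 2 members with the largest change among those called with the same direction on every array measured (for lines) or without overlap between stages (for changes and shifts), the 2 with the highest rank, those at the edge of the group, and the 2 highest and lowest at 19 DPA. Other members named were also named by one of these rules in another comparison. Planned lists of fiber, seed and wall genes could not be used, as no table paired probes with genes. Alternatives were no filter or a stricter one, normexp, no Aquantile, a dye term, the material labels, a replicate block, each replicate left out, the deposited ratios, and other limits for the rule. The number of arrays limits the precision.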

Additional observations from a re-analysis of the deposited data

Results flagged for a closer look

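Results are listed here because the lines changed unequally between stages, by a test of that difference. From 13 to 16 DPA the ratio of 19 of 150 members shifted, against a background of 4.8%, and of 8 without the filter on dim spots, 6 without replicate 2 and 5 on the deposited ratios. Among them 384P18_I_03 moved by 2.79 towards TM-1 on the log2 scale, and 384P29_D_06 and 384P56_P_21 moved by -1.96 and -1.68, towards the *im* mutant. From 16 to 19 DPA the ratio of 55 of 117 members tested shifted, against a background of 11.1%, and of 40 of 150 without the filter, 26 without replicate 2 and 27 on the deposited ratios. With the filter, 384P70_B_01 moved by 1.68 and 384P72_B_13 by 1.24 towards TM-1, but without it the latter moved by 0.72 and was not called. Those named towards the *im* mutant were 384P18_I_03 with -3.19 and 384P47_C_22 with -2.83.

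The control spots marked 50% DMSO, which enter no test, had medians over 400 units in both dyes on 2 of the 15 arrays. Their median was 1196 units in Cy5 and 1670 units in Cy3 on replicate 1 of 19 DPA, and 1895 and 1855 units on replicate 2, against at most 28.5 and 527.5 units on the other 13 arrays. The highest of these was replicate 2 of 25 DPA, where 38 of 48 spots reached 400 units in one or both dyes. Their part in the results at 19 DPA was not tested beyond the values of replicate 3 alone.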

How the results depend on the processing

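The difference between the lines at 16 and 19 DPA kept its direction in all settings tried, except that the material labels reversed it at 16 DPA (45 calls, 43 higher in TM-1). They also reversed the shift from 13 to 16 DPA (60 calls, 46 towards TM-1), gave 96 calls for the shift from 16 to 19 DPA, 1 for TM-1 and 39 for the *im* mutant from 13 to 16 DPA, and turned 11 values of named members. At 16 DPA these became -3.38 for 384P18_I_03, -3.05 for 384P53_H_01, 4.66 for 384P23_B_18 and 2.66 for 384P56_A_03. For the change in TM-1, 384P18_I_03 became -0.20. For the shift from 13 to 16 DPA, 384P18_I_03 became -3.97, 384P29_D_06 1.91 and 384P56_P_21 2.48, and from 16 to 19 DPA 384P70_B_01 became -1.87, 384P72_B_13 -1.91 and 384P18_I_03 3.57.

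Other counts moved as follows, and the cause was not tested. Leaving out spots with either dye dim gave 21 members at 19 DPA, 1 for the mean and 30 for TM-1 from 13 to 16 DPA, and 20 for the shift from 16 to 19 DPA. No filter gave 6 for TM-1 and 8 for the shift from 13 to 16 DPA. Normexp gave 7 for the mean and 3 for the *im* mutant, no Aquantile 8 for the mean, and a dye term 2 for the *im* mutant. The deposited ratios gave 5 and 27 for the 2 shifts. A block for the 5 arrays whose files hold no negative flags, chosen after seeing the data, gave 10 at 13 DPA, 1 for the mean and 1 for the *im* mutant. Replicate 3 as the only array of 19 DPA, also chosen after seeing the data and assumed to vary like the others, gave 74 calls between lines and 53 for the shift from 16 DPA.

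Leaving out each replicate gave 3 to 9 calls at 13 DPA, 42 to 45 at 16 DPA, 45 to 73 at 19 DPA, 0 to 3 for the mean, 0 to 4 for TM-1 and 0 for the *im* mutant, 6 to 21 and 26 to 46 for the shifts, 86 to 130 of the 150 members kept (lowest without replicate 3) and 21 to 30 members dim at 19 DPA. Limits of 300 and 500 units kept 83 and 99 of the members, and at 500 units 52 were dim at 19 DPA.

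The replicate numbers did not meet the condition for pairing, a correlation over 0.1 for every pair. Same-numbered arrays correlated at -0.20 to 0.19 (median 0.04) in the mean and at -0.12 to 0.53 (median 0.20) in the ratio, other arrays at medians of -0.03 and -0.11, and 7 and 11 of 15 arrays correlated best with their own number. With a replicate block the mean from 13 to 16 DPA gave 1 call in place of 4, and the other comparisons gave 6, 45 and 78 for the lines, 11 and 0 within lines, and 20 and 56 for the shifts. Of 254 values of named members under these settings, 213 kept direction and call, 30 kept direction only and 11 turned. Levels under 400 units limit all ratios at 19 DPA and later.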
